A study of Rattus norvegicus with 18 samples.

Results

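The spliceosomal proteins and splicing regulators of the rat testis were examined by RNA-seq after chronic sleep restriction (CSR). Members were transcripts whose RefSeq accession maps to a rat symbol beginning with Srsf, Hnrnp, Sf3a, Sf3b, Snrp, Prpf or U2af, or with Lsm and a digit, besides *Tra2a*, *Tra2b*, *Ess2*, *Sf1* and *Srrm1*. They numbered 81 of the 7016 transcripts in the RNA table and belonged to 69 of its 6682 gene symbols. The testes came from Wistar rats aged 8 weeks, with 3 libraries labelled CSR and 3 labelled control. Both groups share strain, age and tissue, and the labels do not say how sleep was restricted or whether each library came from its own animal. P-values therefore measure the spread between these libraries, which may be technical. Values are FPKM, fragments counted for a transcript relative to its length and to the size of the library, as the authors deposited them. The read depth behind them is unknown.

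Introns are removed from pre-mRNA by the spliceosome, which is built from small nuclear ribonucleoproteins (snRNPs). U1 recognises the 5′ splice site, U2 with its SF3a and SF3b proteins binds the branch point, and the U4/U6.U5 tri-snRNP then joins. SR proteins carry arginine-serine repeats and mostly favour the use of an exon, while hnRNP proteins often act against them. Many SR protein genes limit their own messages by splicing in an exon that marks the transcript for decay. The testis is known for a large variety of alternatively spliced transcripts, most of them in meiotic and postmeiotic germ cells.

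The libraries carried the marks of testis. Of 8 germ cell markers 5 were in the table, and their summed level was 12699 to 15934 FPKM in CSR libraries and 9248 to 15984 FPKM in control libraries. The sums overlapped, but the log2 fold change was positive in all 5 (median 0.37), against 44% of all tested transcripts. In *Pgk2* and *Tnp2* the groups did not overlap. Their lowest CSR values were 5.42 and 3926 FPKM, and their highest control values 3.79 and 3816 FPKM. The groups overlapped in *Oaz3*, *Sycp3* and *Tnp1*. Sertoli cell markers (3 of 6 in the table) summed to 34.8 to 39.6 FPKM in CSR and 44.9 to 47.8 FPKM in control, without overlap. Most of that sum was *Ctsl*, at 30.4, 30.3 and 33.0 FPKM in CSR and 39.9, 41.1 and 40.0 FPKM in control. The groups overlapped in *Sox9* and in *Wt1*, so the gap was that of *Ctsl* and not of the list. Leydig cell markers (4 of 5) summed to 68.2 to 117 and 66.4 to 88.6 FPKM, and peritubular markers (4 of 5) to 17.5 to 20.4 and 16.7 to 22.2 FPKM, in CSR and control. Within that last list *Col1a1*, a collagen chain, was at 0 FPKM in each CSR library and at 2.30, 2.14 and 2.73 FPKM in control (limma adjusted p = 0.0421), the same pattern as *Tra2a* below. *Col1a1* passed the filter described below only through the control libraries. *Myh11*, which made up most of the peritubular sum, lay the other way without overlap. It read 15.8, 17.0 and 14.7 FPKM in CSR and 12.6, 10.8 and 14.2 FPKM in control. The groups overlapped in *Tagln* and *Cnn1*. Of 5 macrophage markers only *Cd68* was in the table, at no more than 0.834 FPKM, and of 5 endothelial markers none was. The red cell markers *Hba-a1* and *Hbb* (2 of 3) summed to 3.02 to 25.5 FPKM in CSR and 5.32 to 28.9 FPKM in control. Of 4 genes listed for epididymis only *Spink2*, which testicular germ cells express too, was present, at 178 to 204 FPKM in CSR and 188 to 248 FPKM in control. The part of these differences in the results on splicing factors was not tested. In such bulk tissue fewer cells of a type and less RNA per cell cannot be told apart.

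Few splicing factor transcripts passed the test between CSR and control. Of the 81 transcripts, 70 passed the filter of at least 1 FPKM in at least 3 libraries and were tested with limma on log2(FPKM + 1), with p-values adjusted over all 5657 tested transcripts and a threshold of 0.05. Calls numbered 4, with 2 on each side. *Ess2* and *Srsf4* rose, *Srsf2* fell, and *Tra2a* was listed at 0 in every CSR library. Calls were 5.71% of the tested splicing factor transcripts, against 0.442% of all tested transcripts. The calls on higher values made up 0.23% and those on lower values 0.212% of all tested transcripts. These 4 calls were known when the members were chosen, so the 5.71% is a description of the list. The median log2 fold change was 0.04 over the 70 transcripts and -0.06 over all tested transcripts. The log2 fold change was positive in 57.1% of the members, against 44% of all tested transcripts, of which 56% were negative. With a mean of at least 5 FPKM the medians were 0.04 over the members and 0.01 over all tested transcripts. Among transcripts above 0 in all libraries they were 0.11 and 0.02. The cause of this gap was not tested. Of the other splicing genes described below, 56.2% of the tested transcripts were positive.

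**Figure D1:**
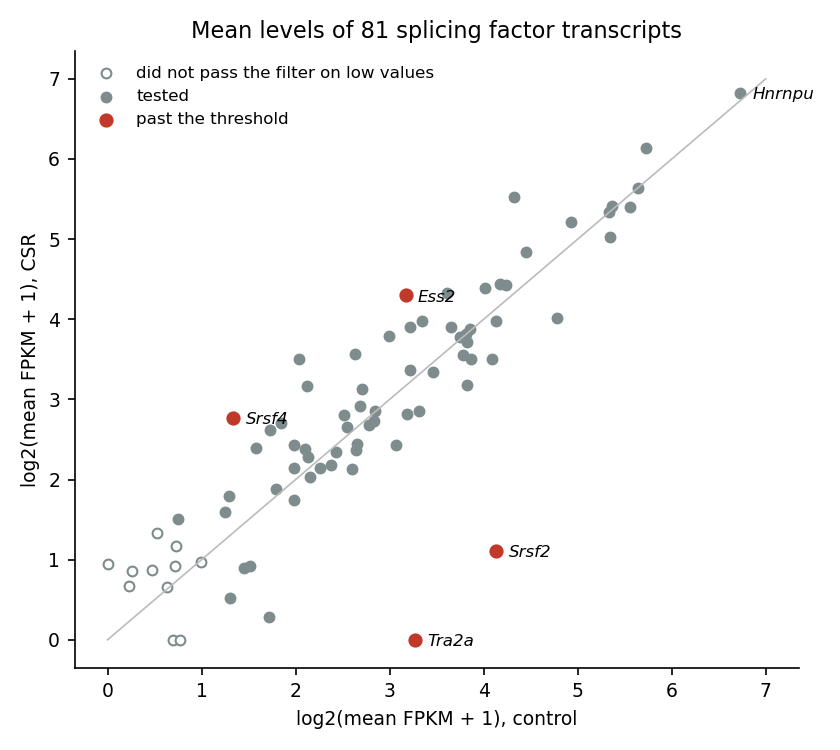
Mean level of each of the 81 splicing factor transcripts in CSR (vertical) and control (horizontal), both as log2(mean FPKM + 1) over 3 libraries, with the line of equal levels in grey. *Srsf2* and *Tra2a* lie far below the line, *Ess2* and *Srsf4* above it, and *Hnrnpu* has the highest level in both groups.

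*Srsf2* (NM_001009720) encodes an SR protein needed for constitutive splicing and for exon inclusion. It read 0.883, 0.925 and 1.65 FPKM in CSR, against 17.2, 19.2 and 13.3 FPKM in control. The highest CSR value was thus far below the lowest control value. The means were 1.15 ± 0.433 FPKM in CSR and 16.6 ± 3.00 FPKM in control (SD, n = 3 each). The log2 fold change was -3.03 (standard error 0.21, limma adjusted p = 0.00756). Within CSR only library 3 reached 1 FPKM, so *Srsf2* passed the filter only through the control libraries. The call was lost without control library 1 (adjusted p = 0.051) and without control library 2 (adjusted p = 0.0744).

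*Tra2a* (NM_001126296) encodes transformer-2 alpha, an SR-related activator of exon inclusion. It was at 0 FPKM in each of the 3 CSR libraries and at 8.01, 8.72 and 9.15 FPKM in the control libraries (limma adjusted p = 0.00293). The CSR values have no spread, and since a listed 0 may stand for an estimate that failed, a fold is not given. It passed the filter only through the control libraries. Zeros were more frequent in CSR over the whole table, with 1183, 1000 and 1415 of 7016 transcripts at 0 in CSR, against 330, 275 and 423 in control. Of the 81 splicing factor transcripts 11, 5 and 7 were at 0 in the CSR libraries and 2 in each control library. Its paralog *Tra2b* (NM_057119), which acts on similar purine-rich exon sequences, did not share this pattern. It read 10.7, 13.8 and 14.8 FPKM in CSR and 11.3, 15.9 and 11.9 FPKM in control. The groups overlapped (log2 fold change 0.01, standard error 0.18, limma adjusted p = 0.975). Of all transcripts measured, 202 (2.88%) shared the pattern of *Tra2a*, a 0 throughout CSR and a value in each control library. The reverse was seen in 1 transcript (0.0143%). Among the splicing factors *Tra2a* was the sole case of the first kind, and none was of the second. The RefSeq table lists 3 pseudogene entries of *Tra2a* and 6 of *Tra2b*, between which reads may be shared.

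*Ess2* (NM_001012472) encodes a nuclear protein of the catalytically active spliceosome. It read 18.3, 18.9 and 18.8 FPKM in CSR and 7.97, 8.13 and 7.87 FPKM in control. Each group spanned less than 1 FPKM, and the means were 18.7 ± 0.285 FPKM in CSR and 7.99 ± 0.13 FPKM in control (SD, n = 3 each). The log2 fold change was 1.13 (standard error 0.09, limma adjusted p = 0.0154). Leaving out CSR library 2 or 3 or control library 1 or 2 raised the adjusted p to between 0.0512 and 0.0883. The span of *Ess2* in the RefSeq table overlaps *Tssk2* and *Tssk1b*, testis-specific serine kinases of the opposite strand. *Tssk2* read 149, 129 and 149 FPKM in CSR and 127, 118 and 127 FPKM in control (limma adjusted p = 0.392). *Tssk1b* read 3.64, 78.4 and 4.33 FPKM in CSR and 3.07, 1.37 and 2.01 FPKM in control. CSR library 2 was high in *Tssk1b* and not in *Ess2*. Whether the counting used strand is not given in the sources used here, and without it reads from these overlapping genes cannot be told apart.

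*Srsf4* (NM_001108685), an SR protein of the family with a pair of RNA recognition motifs, was low in control. It read 5.83, 6.15 and 5.45 FPKM in CSR and 1.89, 1.42 and 1.26 FPKM in control. The means were 5.81 ± 0.352 FPKM in CSR and 1.52 ± 0.325 FPKM in control (SD, n = 3 each). The log2 fold change was 1.44 (standard error 0.17, limma adjusted p = 0.0421). This call lay closest to the threshold of the 4 and was lost when any library except control library 3 was left out, with adjusted p from 0.0683 to 0.217.

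**Figure D2:**
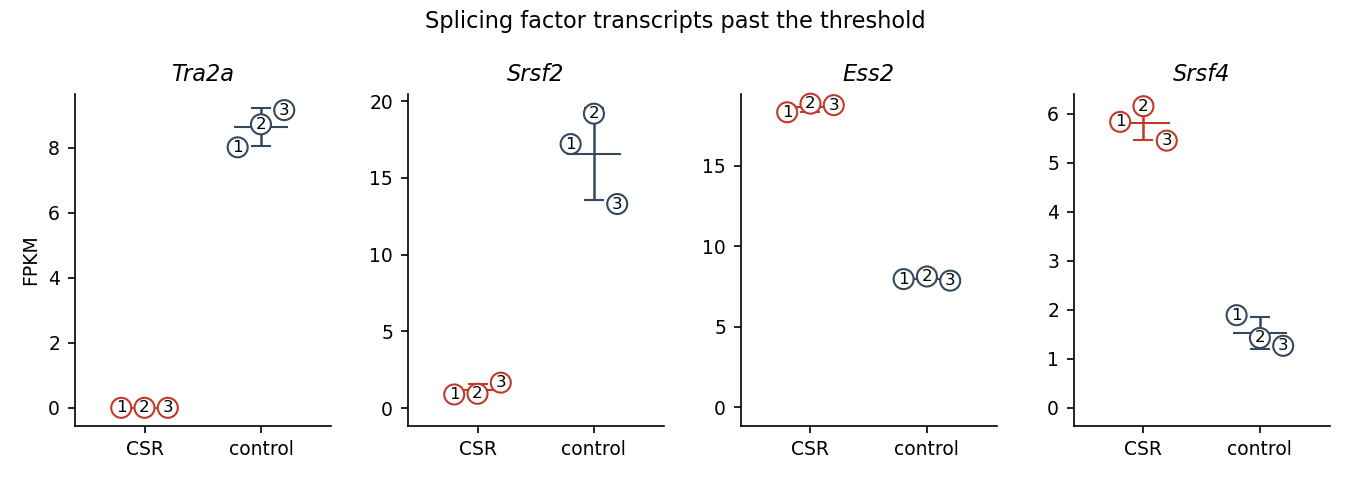
FPKM of the 4 splicing factor transcripts past the threshold, with 1 numbered point per library, a bar at the mean and the SD as error bar (n = 3 per group). In each panel the 3 CSR libraries and the 3 control libraries do not overlap, and *Tra2a* is at 0 in every CSR library. The transcripts were chosen by the threshold, which favours groups that do not overlap.

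Promoters of the called genes are shown because the text turns on their transcript levels. They are RefSeq windows of build GRCr8, from 250 bases before to 50 bases after the annotated start, printed 5′ to 3′ on the gene's strand. Capitals mark matches, on either strand, to a CCAAT box (CCAAT), a GC box (GGGCGG), an ETS site (CCGGAAG), the core of a cAMP response element (TGACG) or a TATA box (TATAAA). Neighbouring GC boxes may overlap each other. *Tra2a* is named only.
Srsf2 (GRCr8, chr10:102554092-102554391, minus strand): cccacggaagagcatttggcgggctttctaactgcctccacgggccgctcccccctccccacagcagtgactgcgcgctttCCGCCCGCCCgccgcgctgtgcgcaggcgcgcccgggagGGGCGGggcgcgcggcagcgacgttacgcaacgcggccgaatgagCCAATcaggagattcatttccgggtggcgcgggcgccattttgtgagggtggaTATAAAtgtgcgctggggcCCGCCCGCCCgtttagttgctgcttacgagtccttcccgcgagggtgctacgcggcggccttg
Ess2 (GRCr8, chr11:96579977-96580276, plus strand): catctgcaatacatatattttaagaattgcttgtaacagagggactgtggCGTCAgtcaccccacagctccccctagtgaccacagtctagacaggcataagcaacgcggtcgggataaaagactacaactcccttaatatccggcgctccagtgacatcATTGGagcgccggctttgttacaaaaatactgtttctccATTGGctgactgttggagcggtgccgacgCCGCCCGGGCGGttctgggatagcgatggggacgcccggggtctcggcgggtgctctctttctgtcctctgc
Srsf4 (GRCr8, chr5:149345288-149345587, plus strand): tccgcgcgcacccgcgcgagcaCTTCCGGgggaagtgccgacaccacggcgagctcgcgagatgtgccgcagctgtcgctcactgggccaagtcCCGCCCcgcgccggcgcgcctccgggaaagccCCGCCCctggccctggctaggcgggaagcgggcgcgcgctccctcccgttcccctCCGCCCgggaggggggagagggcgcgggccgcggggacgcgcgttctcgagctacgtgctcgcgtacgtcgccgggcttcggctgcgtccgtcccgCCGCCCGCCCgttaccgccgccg

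All 3 windows hold GC boxes, 5 in *Srsf2*, 2 in *Ess2* and 5 in *Srsf4*. *Srsf2*, which fell, alone holds the TATA box letters, starting at position -32 from the annotated start, besides a CCAAT box. *Ess2* holds 2 CCAAT boxes and a cAMP response element core, and *Srsf4* holds an ETS site. Of the 69 member genes 66 had a window, and these genes gave 71 windows. GC boxes were in 64.8% of them, against 60.8% of the 5790 windows of genes in the RNA table and 33.1% of all 33469 windows. CCAAT boxes were in 54.9% of member windows, 39.6% of windows of the RNA table and 37.5% of all windows. The cAMP response element core was in 47.9, 35.3 and 21.2%, the ETS letters in 28.2, 21.0 and 8.75%, and the TATA letters in 11.3, 6.86 and 14.2% of these 3 sets. The median number of CpGs per window was 24 in member windows, 21 in the RNA table and 7 in all windows. A match is a description of the letters and not of a bound factor.

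The SR proteins differed among themselves. Of 12 transcripts 10 were tested, and 1 was called higher and 1 lower, where 0.442% of all tested transcripts were called. These calls were known when the members were chosen. The median log2 fold change was 0.45, with 7 positive and 3 negative values. Over all tested transcripts the median was -0.06 and 44% were positive. The positive values include the 3 transcripts of *Srsf5* described below, which were low in control libraries 1 and 2. *Srsf7* (NM_001039035), a zinc-knuckle SR protein, read 1.91, 1.97 and 1.65 FPKM in CSR and 0.766, 0.572 and 0.709 FPKM in control. The groups did not overlap but the transcript did not pass (limma adjusted p = 0.294), and the reference lists 7 pseudogenes of it. *Srsf3* (NM_001047907), the smallest SR protein, had 6.05 ± 0.933 FPKM in CSR and 8.07 ± 2.22 FPKM in control, and 10 pseudogenes. *Srsf6* (NM_001014185), a paralog of *Srsf4*, had 9.31 ± 1.90 and 8.32 ± 2.95 FPKM. *Srsf1* (NM_001109552), the founding SR protein, varied within both groups, at 1.88, 5.82 and 1.58 FPKM in CSR and 7.48, 2.47 and 0.364 FPKM in control. *Srsf9* (NM_001009255), a short relative of *Srsf1*, had 3.41 ± 0.552 and 3.80 ± 0.579 FPKM. *Srsf10* and *Srsf12* were under the filter, at no more than 0.930 FPKM and 2.63 FPKM in any library.

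*Srsf5*, an SR protein whose message is known to be induced by insulin, had 3 transcripts in the table, and control library 3 stood apart in each. NM_001195505 read 45.0, 40.9 and 48.6 FPKM in CSR and 7.91, 9.05 and 40.0 FPKM in control. NM_001195506 read 9.97, 8.76 and 5.20 FPKM in CSR and 0.123, 1.19 and 8.72 FPKM in control. NM_019257 read 10.7, 19.6 and 14.2 FPKM in CSR and 5.92, 6.23 and 15.4 FPKM in control. Summed over transcripts, *Srsf5* had 65.7, 69.2 and 68.0 FPKM in CSR and 14.0, 16.5 and 64.2 FPKM in control. Control libraries 1 and 2 were low and control library 3 was near the CSR libraries. None of the 3 passed with all libraries (limma adjusted p from 0.365 to 0.414). Without control library 3, the log2 fold change was 2.27 for NM_001195505 (standard error 0.11, limma adjusted p = 0.00569) and 2.48 for NM_001195506 (standard error 0.41, limma adjusted p = 0.0463). Leaving out the control library nearest to CSR raises the fold and lowers the control spread by construction, so these values are a description.

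Among SR-related factors, *Srrm1* (NM_001107986), a nuclear matrix coactivator that bridges SR proteins and snRNPs, read 18.4, 20.7 and 20.7 FPKM in CSR and 14.3, 14.3 and 16.6 FPKM in control. Every CSR library was above every control library. The log2 fold change of 0.38 (standard error 0.11) did not pass (limma adjusted p = 0.343).

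**Figure D3:**
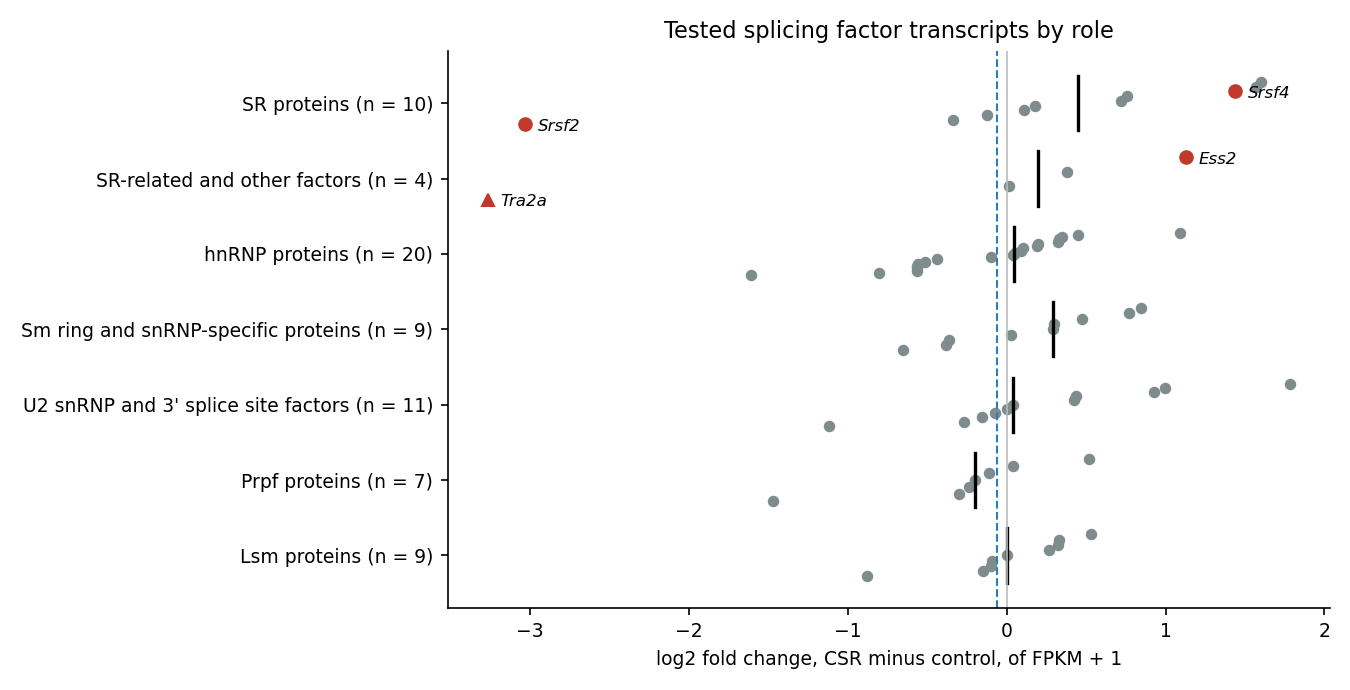
Log2 fold change of FPKM + 1 (CSR minus control) of the 70 tested splicing factor transcripts by role, 1 point each. Red points passed the threshold, the triangle is *Tra2a*, whose fitted value depends on the added 1 FPKM, black bars are class medians and the dashed line is the median of all tested transcripts at -0.06.

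None of the 20 tested hnRNP transcripts, of 24 in the table, was called by limma. An unadjusted limma p under 0.05 was found in 2 (10%, against 13.2% of all tested transcripts). *Hnrnpu* (NM_057139), a scaffold protein that binds RNA and chromatin, was the most abundant member. It read 115, 110 and 113 FPKM in CSR and 105, 101 and 108 FPKM in control, so the groups were close without overlap (log2 fold change 0.10, standard error 0.07, limma adjusted p = 0.495). *Hnrnpul1* (NM_001108477), its relative, had 41.7 ± 3.44 FPKM in CSR and 40.1 ± 1.42 FPKM in control. *Hnrnpul2* (NM_001305220), another relative, read 11.1, 11.6 and 9.86 FPKM in CSR and 7.64, 6.15 and 1.75 FPKM in control. The groups did not overlap, control library 3 was the lowest, and the log2 fold change of 1.09 (standard error 0.43) was the largest positive value in the class (limma adjusted p = 0.372). *Hnrnph1* (NM_080896), which binds G-rich sequences, had 20.5 ± 0.794 and 17.8 ± 1.78 FPKM.

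In several hnRNP genes a single library stood apart. *Hnrnpk* (NM_057141), a poly(C)-binding protein, read 22.6, 0.288 and 22.8 FPKM in CSR and 25.6, 28.5 and 25.1 FPKM in control. CSR library 2 was far below the rest, and CSR libraries 1 and 3 were slightly below every control library. The groups thus did not overlap, but the log2 fold change of -1.61 had a standard error of 1.14 (limma adjusted p = 0.485). Both transcripts of *Hnrnpm*, a regulator of exon skipping, were listed at 0 in CSR library 1. The other CSR libraries had 29.8 and 25.2 FPKM summed over both, and the control libraries had 9.38, 7.44 and 11.9 FPKM. The 4 transcripts of *Hnrnpd*, which binds AU-rich elements, summed to 21.7, 22.2 and 3.44 FPKM in CSR and 19.1, 23.3 and 23.2 FPKM in control. CSR library 3 alone was low, in each of the 4. *Hnrnpa3*, of the hnRNP A/B family, summed to 47.3, 41.0 and 39.0 FPKM in CSR and 44.5, 44.9 and 19.3 FPKM in control, with control library 3 low. Its main transcript NM_001111295 held 84.8 to 86.2% of that sum in CSR and 79.0 to 90.1% in control. The transcripts of *Hnrnpl*, a binder of CA repeats, summed to 18.9, 18.3 and 12.6 FPKM in CSR and 27.7, 28.9 and 18.2 FPKM in control. The groups overlapped there through control library 3.

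**Figure D4:**
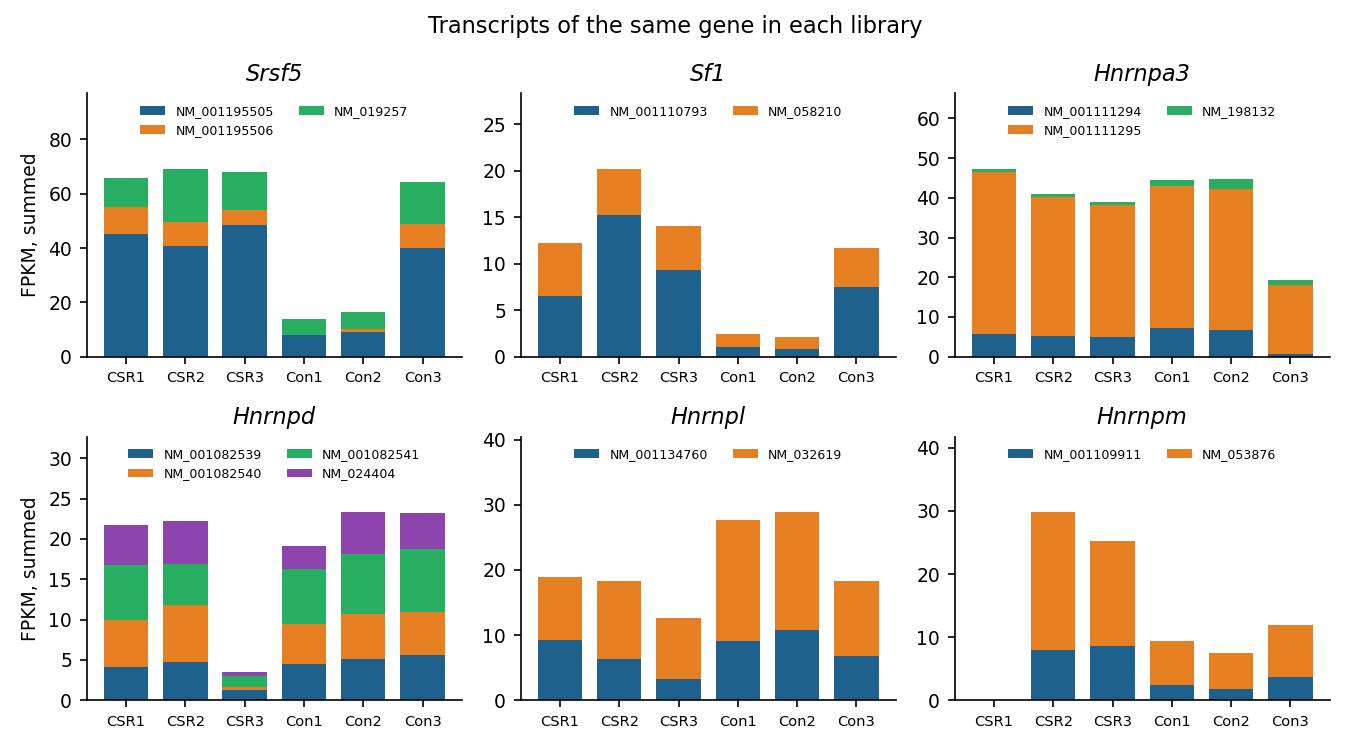
FPKM of the transcripts of 6 splicing factor genes, stacked for each library (CSR libraries 1 to 3, then control libraries 1 to 3), with colours for RefSeq accessions. *Srsf5* and *Sf1* are low in control libraries 1 and 2, *Hnrnpd* is low in CSR library 3, and *Hnrnpm* is at 0 in CSR library 1.

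Such single low values were counted over the table by a rule chosen after the values were seen: 1 library under 10% of the next lowest, which itself had at least 1 FPKM. They occurred in 5 of 62 splicing factor transcripts that could meet it (8.06%) and in 467 of 4776 transcripts of the whole table (9.78%). All 5 low values were in CSR libraries, 2 in library 1, 1 in library 2 and 2 in library 3. Over the whole table CSR libraries held 109, 90 and 203 of them and control libraries 23, 21 and 21. The fifth was *Prpf38b*, a relative of *Prpf38a*, at 7.60, 3.97 and 0 FPKM in CSR and 3.35, 2.46 and 4.28 FPKM in control.

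Of the 9 Snrp transcripts, all tested, none was called by limma. An unadjusted limma p under 0.05 was found in 2 (22.2%, against 13.2% of all tested transcripts). The Sm proteins, which form the ring around snRNAs, varied in both directions. *Snrpe* (NM_001271237) read 21.4, 16.8 and 19.0 FPKM in CSR and 7.78, 9.82 and 15.9 FPKM in control, without overlap (log2 fold change 0.77, standard error 0.26, limma adjusted p = 0.363). *Snrpd1* (NM_001106163) read 13.8, 13.8 and 14.2 FPKM in CSR and 3.76, 6.99 and 14.1 FPKM in control, where only control libraries 1 and 2 were low. *Snrpg* (NM_001135085) lay the other way, at 11.4, 10.0 and 9.57 FPKM in CSR and 13.5, 15.8 and 11.5 FPKM in control, and has 8 pseudogenes. *Snrpd2* (NM_001109399) was the most abundant, at 40.0, 35.3 and 19.2 FPKM in CSR and 40.4, 39.9 and 38.4 FPKM in control, with CSR library 3 low. *Snrpf* (NM_001126091) had 20.7 ± 2.18 and 17.0 ± 4.61 FPKM in CSR and control, and *Snrpb* (NM_134358) 6.26 ± 0.273 and 6.15 ± 0.669 FPKM. *Snrpa* (NM_001008303), specific to U1, read 1.59, 0.971 and 0 FPKM in CSR and 1.76, 2.05 and 1.35 FPKM in control.

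The branch point and 3′ splice site factors gave 11 tested transcripts, none called by limma. An unadjusted limma p under 0.05 was found in 3 (27.3%, against 13.2% of all tested transcripts). These were *Sf3b4* and both transcripts of *Sf1*, all on the higher side, against 5.9% of all tested transcripts on that side. *Sf3b4* (NM_001011951), an SF3b subunit that contacts pre-mRNA near the branch point, read 66.2, 69.6 and 72.3 FPKM in CSR and 42.0, 47.1 and 66.5 FPKM in control. *Sf3a2* (NM_001011986), a subunit of SF3a, read 26.3, 28.0 and 28.5 FPKM in CSR and 17.5, 17.2 and 27.8 FPKM in control. In both, control libraries 1 and 2 were low and control library 3 was within or near the CSR range. *Sf3b1* (NM_053426), the core subunit that clamps the branch point helix, had 41.2 ± 1.96 FPKM in CSR and 46.2 ± 4.46 FPKM in control. *Sf3b2* (NM_001106326), another SF3b subunit, had 39.5 ± 4.13 and 39.4 ± 1.29 FPKM, and *U2af1* (NM_001044291), which reads the AG of the 3′ splice site, had 4.09 ± 0.0612 and 4.38 ± 0.543 FPKM. *Sf3b5* (NM_001126092), the smallest of the SF3b subunits named here, read 5.52, 1.14 and 17.5 FPKM in CSR and 11.7, 10.4 and 17.2 FPKM in control, the widest range within CSR of this class.

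*Sf1*, the protein that first binds the branch point before U2 replaces it, had 2 transcripts. NM_001110793 read 6.50, 15.3 and 9.36 FPKM in CSR and 1.05, 0.795 and 7.48 FPKM in control. NM_058210 read 5.70, 4.94 and 4.73 FPKM in CSR and 1.41, 1.31 and 4.18 FPKM in control. In both transcripts control library 3 was closer to CSR than to the other control libraries. Neither passed with all libraries (limma adjusted p = 0.363 each). Without control library 3 their log2 fold changes were 2.50 and 1.37 (limma adjusted p = 0.0363 and 0.0298). As with *Srsf5*, leaving out the control library nearest to CSR favours such values by construction.

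Control library 3 shaped the count of calls. Without it limma called 11 of the 70 tested splicing factor transcripts, against 259 (4.58%) of all tested transcripts. Of the 11, 9 were higher and 2 lower in CSR. The 259 calls are not split by direction here, so this split has no background beside it. Besides the 4 described above these were both *Sf1* transcripts, *Sf3a2*, *Sf3b4*, *Snrpe* and 2 transcripts of *Srsf5*, each higher in CSR. In these added transcripts the library left out was the control library nearest to CSR, so their calls are a description and no test. In 42 of 70 splicing factor transcripts (60%) control library 3 was closer to the mean of CSR than to that of control libraries 1 and 2, as it was in 58.6% of all tested transcripts. The same was true of control library 1 in 28.6% and of control library 2 in 27.1% of the splicing factor transcripts. The median absolute log2 difference over these transcripts was 0.17 between control libraries 1 and 2, 0.35 and 0.44 between each of them and control library 3, and 0.17 to 0.22 among CSR libraries. Control library 3 differed from the CSR libraries by 0.175 to 0.28. The codes of control libraries 1 and 2 differ only in the last digit, and whether both came from 1 animal is not stated. Without control library 3 the control spread is that of these 2 libraries alone, and it may be technical. With control libraries 1 and 2 averaged as 1 library, only *Tra2a* was called among the splicing factors. The germ cell marker sum was highest in control library 3, at 15984 FPKM, and lowest in control library 1, at 9248 FPKM. In 4 of the 5 markers, *Oaz3*, *Sycp3*, *Tnp1* and *Tnp2*, control library 3 was closer to the mean of CSR than to that of control libraries 1 and 2, and in *Pgk2* it was not. In *Sycp3* it was below all other libraries. Their part in this result was not tested.

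**Figure D5:**
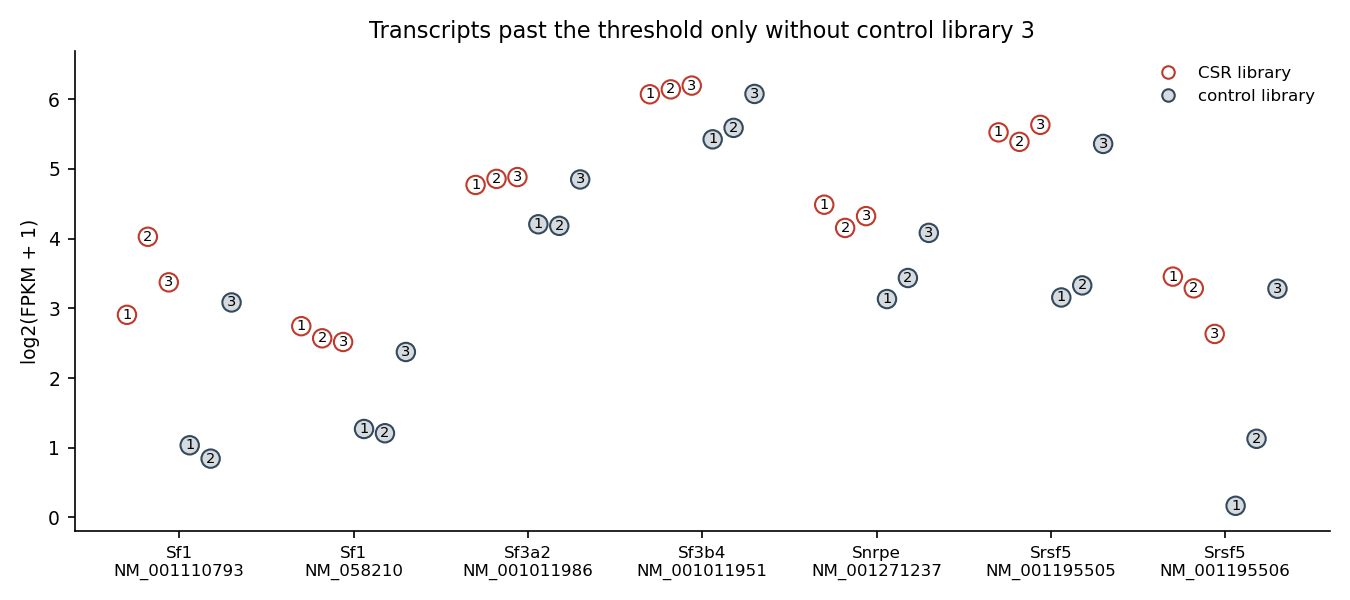
Log2(FPKM + 1) in each numbered library of the 7 splicing factor transcripts past the threshold only when control library 3 is left out. Control libraries 1 and 2 lie below the CSR libraries in every transcript, and control library 3 lies within or close to the CSR range. The transcripts were chosen by that condition, so the place of control library 3 is built into the choice.

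Of 10 Prpf transcripts 7 were tested and none was called by limma. An unadjusted limma p under 0.05 was found in 1 (14.3%, against 13.2% of all tested transcripts). *Prpf4* (NM_001106659), a protein of the U4/U6 snRNP, read 0, 0.652 and 0 FPKM in CSR and 2.30, 2.75 and 1.84 FPKM in control (limma adjusted p = 0.171). *Prpf6* (NM_001079766), a bridge within the tri-snRNP, read 10.8, 11.8 and 9.48 FPKM in CSR and 13.0, 13.0 and 12.3 FPKM in control. Its groups did not overlap (log2 fold change -0.24, standard error 0.12, limma adjusted p = 0.395). *Prpf19* (NM_139333), a ubiquitin ligase of the active spliceosome, had 12.8 ± 1.04 FPKM in CSR and 12.5 ± 1.59 FPKM in control, and *Prpf38a* (NM_001106672), a factor of spliceosome activation, had 5.61 ± 0.565 and 6.11 ± 0.248 FPKM. *Prpf31* (NM_001106219), a tri-snRNP protein, had 4.41 ± 0.836 and 2.97 ± 1.45 FPKM. *Prpf8*, the central scaffold of the spliceosome in every cell, did not pass the filter. It had a listed 0 throughout CSR and in control library 1, and 1.07 and 1.06 FPKM in control libraries 2 and 3.

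Of 11 Lsm transcripts 9 were tested and none was called by limma. None had an unadjusted limma p under 0.05, against 13.2% of all tested transcripts. Most Lsm proteins form rings on U6 snRNA and on messages bound for decay. *Lsm12* (NM_001105843) was the most abundant, at 48.9 ± 2.41 FPKM in CSR and 48.9 ± 2.08 FPKM in control. *Lsm8* (NM_001106585), which is specific to the ring of U6, had 14.8 ± 1.88 and 16.5 ± 1.85 FPKM, and *Lsm3* (NM_001106611) had 12.2 ± 1.47 and 13.1 ± 1.40 FPKM. *Lsm10* (NM_001108976), of the U7 snRNP that processes histone messages, had 2.46 ± 1.01 and 1.45 ± 1.00 FPKM, the largest positive log2 fold change of the class (0.53, standard error 0.37). *Lsm5* (NM_001107289) lay at the other end, listed at 0 in CSR libraries 1 and 2 and at 1.32 FPKM in CSR library 3, against 2.03, 1.06 and 1.30 FPKM in control.

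Groups did not overlap in 9 tested splicing factor transcripts that were higher in CSR (12.9%) and 7 that were lower (10%). Over all tested transcripts the shares were 8.96 and 12.6%. An unadjusted limma p under 0.05 was found in 21.4% of the splicing factor transcripts, 10 higher and 5 lower in CSR, and in 13.2% of all, 5.9% higher and 7.32% lower. The summed FPKM of the 81 transcripts was 945 to 972 in CSR libraries and 850 to 940 in control libraries. As a share of all FPKM in the table it was 0.645 to 0.663% in CSR and 0.644 to 0.654% in control.

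Other splicing genes, taken from a list of 174 helicases, Prp19 complex proteins, exon junction factors, regulators, kinases and snRNP assembly factors, were not called. They gave 115 transcripts in the table and 105 tested, of which 0 passed by limma, 7 had an unadjusted p under 0.05 (6.67%, against 13.2% of all tested transcripts), and the median log2 fold change was 0.06. *Ewsr1* (NM_001025632), an RNA-binding protein of the FET family, read 25.1, 27.4 and 18.0 FPKM in CSR and 8.74, 7.37 and 12.4 FPKM in control, without overlap (log2 fold change 1.23, standard error 0.23, limma adjusted p = 0.143). *Clk1* (NM_001106913), a kinase that phosphorylates SR proteins, was listed at 0 in every CSR library and read 1.26, 1.08 and 2.23 FPKM in control (limma adjusted p = 0.186). *Ddx5* (NM_001007613), an RNA helicase and the most abundant of them, read 247, 254 and 251 FPKM in CSR and 262, 117 and 79.3 FPKM in control. The CSR libraries agreed closely while the control libraries spread widely. *Ybx1* (NM_031563), a messenger ribonucleoprotein component of germ cells, had 142 ± 4.83 FPKM in CSR and 126 ± 13.0 FPKM in control, and *Ddx20* (NM_001191711), of the SMN complex that loads Sm rings, had 84.0 ± 3.82 and 104 ± 18.1 FPKM.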

How the data were processed

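Poly(A) RNA from rat testis was sequenced, per the labels' protocols. The authors deposited 1 FPKM value per RefSeq transcript and library. The submitters' processing notes name the rn6 build, HISAT2, StringTie and Trimmomatic, without settings, and how transcripts were selected is not stated there. Through a GRCr8 RefSeq gene list 6911 of 7016 accessions received a symbol. No common step that 1 read would give was seen among low values, and depth is therefore unknown. Columns were matched to samples by the codes in the labels.

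The limma test (3.58.1, R 4.3.3, with a mean-variance trend) ran on log2(FPKM + 1) of the transcripts that reached 1 FPKM in 3 or more libraries, with Benjamini-Hochberg adjustment over all 5657, two-sided, at 0.05. Fold changes on this scale understate the change of low transcripts. Some low transcripts passed the filter through 1 group only, among them *Prpf4* and *Clk1* through control and *Srsf7* through CSR. The fit was tested on simulated data. Members, classes and lists were chosen with earlier results of these data known. Named transcripts are those past the threshold or listed at 0 in a whole group, the most abundant and the most changed of each class, and those of genes with several transcripts. Some non-overlapping, single-library or low transcripts outside this rule were chosen after their values were seen. Alternatives were other pseudocounts, filters and scalings, no trend, a replicate block, 2 control libraries averaged, and each library left out. The 12 methylation libraries (6 CSR, 6 control) are not used here, because no rn6 annotation was at hand to place CpGs at these genes.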

Additional observations from a re-analysis of the deposited data

How the results depend on the processing

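The count of called splicing factor transcripts, 4 with all libraries, was 3 or 4 with a pseudocount of 0.1 or 0.5 FPKM, without a filter, among transcripts above 0 in all libraries, without a trend, and with quantile normalization or median centring. It was 2 with a mean of at least 5 FPKM, which removes *Tra2a* and *Srsf4*, and 1 with control libraries 1 and 2 averaged. Leaving out 1 library gave 1 to 11. *Srsf2* was called in 12 of 16 alternatives, *Ess2* in 10 of 16 and *Srsf4* in 6 of 15 that test it, with adjusted p from 0.00459 to 0.157, 0.00709 to 0.211 and 0.00998 to 0.359. The CSR values of *Srsf2* are low and it passed the filter only through the control libraries, so its count is a description. *Tra2a* was called in 13 of 14 that test it (adjusted p from 0.00101 to 0.0776), but its CSR values are all 0 without spread and the filters on a mean of 5 FPKM and on values above 0 remove it, so this count says nothing of its stability. The median log2 fold change, 0.04, became 0.11 among transcripts above 0 in all libraries, a filter that moved the median of all tested transcripts by 0.08, and lay between 0.019 and 0.0769 with 1 library left out. For the other splicing genes the count of 0 became 1 without a trend (*Clk1*, lower) and lay between 0 and 3 with 1 library left out; the 3, without control library 3, were *Ewsr1* and *Wbp11*, higher, and *Ddx20*, lower. The cause of these changes was not tested. With the replicate number as a block the counts were 0 by limma, and 15 members had an unadjusted p under 0.05. Deviations from the group means correlated at 0.032, 0.009 and 0.042 between libraries of the same number. Between libraries of different numbers the correlations ran from -0.064 to 0.034. With so few libraries this cannot tell whether the numbers pair them, and the labels do not say so. No called transcript changed sign in any alternative.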
